A study of Mus musculus with 6 samples.

Results

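The transcripts of 10 genes of bile acid synthesis, conjugation and uptake were examined in mouse liver. They were taken from the 56305 Ensembl genes of the table by symbol, and all 10 were present. Livers came from male mice aged 5 weeks, 3 WT and 3 Vps15LKO, fed chow ad libitum and collected at ZT6, that is 6 h after lights on, with 1 library of polyadenylated RNA per liver. Vps15LKO mice are AlbCre+;Vps15 f/f, so that Vps15, the regulatory subunit of class 3 PI3K, is deleted in the cells in which the albumin promoter drives Cre. The livers also hold cells that do not express albumin, and whether the WT mice carry the floxed alleles is not given in the sources used here.

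Hepatocytes make bile acids from cholesterol. In the classic route Cyp7a1 adds the first hydroxyl group to the ring, and in the alternative route Cyp27a1 and Cyp7b1 act in turn on the side chain and the ring. Hsd3b7 and Akr1d1 modify the ring in both routes, Cyp8b1 adds the hydroxyl group that makes cholic acid, and Slc27a5 and Baat couple the product to coenzyme A and then to taurine or glycine. Slc10a1, also named NTCP, returns conjugated bile acids from the blood to the hepatocyte. Nr0b2, also named SHP, is a nuclear receptor without a DNA-binding domain that the bile acid receptor Nr1h4 (FXR) induces and that represses Cyp7a1 and Cyp8b1.

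All 10 genes were lower in Vps15LKO liver, with log2 fold changes between −5.05 for Cyp7b1 and −1.43 for Akr1d1. Relative to hepatocyte markers, however, only 6 were called lower, against 2.48% of all genes tested. There Cyp7a1, Hsd3b7 and Akr1d1 were not lower and Nr0b2 was not called. The normalized count, the deposited value, is the number of reads on a gene divided by the size factor of its library. Genes that reached 20 normalized counts in 3 livers or more were compared by limma on log2(normalized count + 1). Calls required an adjusted p below 0.05 together with a change of 1.2-fold or more. All 10 passed the filter and were called lower, against 33.0% of the 15430 genes tested, and 0 were called higher, against 33.5%. For all 10, every Vps15LKO value lay below every WT value, as for 36.8% of the genes tested, while 36.4% of these lay wholly above. The median log2 fold change was −2.47 over the 10 genes and −0.02 over all genes tested. From 0.331% (Cyp7b1) to 7.25% (Akr1d1) of all genes tested had a lower log2 fold change than the gene in question. Together the 10 genes took 0.365% to 0.395% of each WT library and 0.0778% to 0.133% of each Vps15LKO library, shares of reads that do not depend on the size factors. In bulk liver, fewer hepatocytes and less RNA per hepatocyte cannot be told apart.

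**Figure D1:**
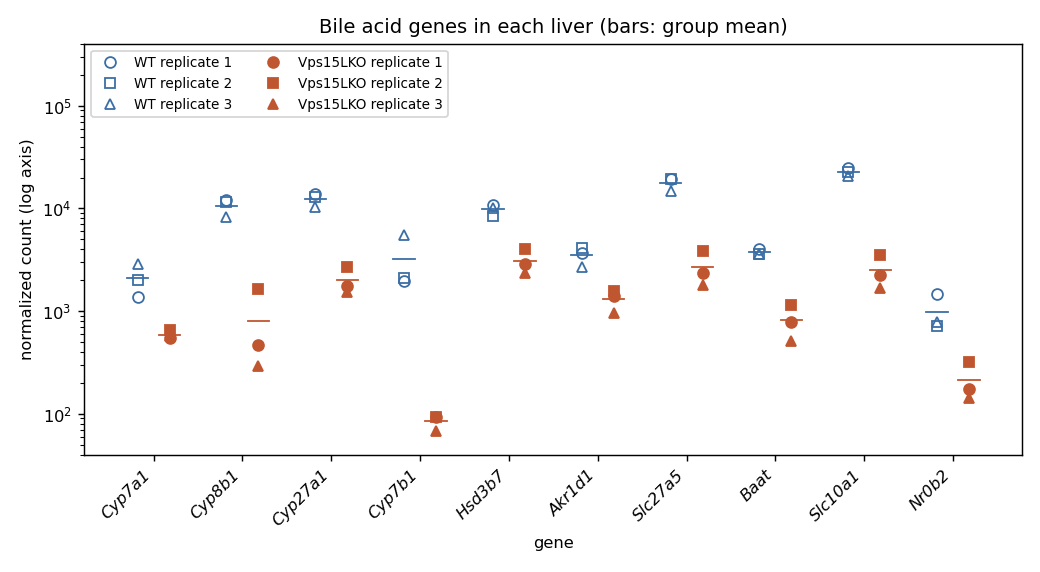
Normalized count (log axis) of the 10 genes in each of the 3 WT (open symbols) and 3 Vps15LKO (filled symbols) livers, with bars at the group means. No gene overlaps between genotypes on the deposited scale, and Vps15LKO replicate 2 (filled square) is the highest Vps15LKO liver for all 10 genes on this scale and for 8 of 10 when libraries are scaled to the same total of reads.

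Several facts about the libraries bear on these values. The libraries held 16137093 to 18110223 reads on genes, but the size factors were 0.742 to 0.801 for WT and 1.23 to 1.41 for Vps15LKO, so the same share of reads is reported lower in Vps15LKO. When libraries were instead scaled to equal totals of reads, each log2 fold change rose by 0.72 to 0.73, and all 10 genes stayed called lower, between −4.33 and −0.70, where 11.1% of all genes tested were called lower and 66.8% higher. Pik3r4, the gene of Vps15, had 508, 573 and 459.7 normalized counts in WT and 341, 362 and 355 in Vps15LKO livers, a log2 fold change of −0.54 (limma adjusted p = 0.0021), which was 0.19 and not called under total-read scaling. The deleted region was not counted on its own.

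The promoters of Cyp8b1 and Nr0b2 are shown because, among the windows of the 10 genes, only these hold a match to a motif longer than a half-site or to an E-box. Promoter windows were read from RefSeq on GRCm38.p6, from 250 bases before to 50 after the start of each gene, and the 250 bases before the start are printed 5′ to 3′ on the strand of the gene with the matches in capitals. The printed stretch of Cyp8b1 is chr9:121916306-121916555 on the minus strand, and that of Nr0b2 is chr4:133553126-133553375 on the plus strand.

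Cyp8b1: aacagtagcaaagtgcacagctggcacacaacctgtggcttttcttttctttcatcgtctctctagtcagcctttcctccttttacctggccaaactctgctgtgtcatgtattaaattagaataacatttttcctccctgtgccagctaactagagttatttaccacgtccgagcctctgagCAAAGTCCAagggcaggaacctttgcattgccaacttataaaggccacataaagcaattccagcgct
Nr0b2: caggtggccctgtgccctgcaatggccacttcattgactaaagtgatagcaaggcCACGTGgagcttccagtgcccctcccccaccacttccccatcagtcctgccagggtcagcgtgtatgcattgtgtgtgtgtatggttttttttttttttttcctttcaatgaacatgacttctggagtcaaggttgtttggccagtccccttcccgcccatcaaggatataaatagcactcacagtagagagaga

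Cyp8b1 holds CAAAGTCCA, a motif of the Hnf4a type, from 67 bases before its start. These letters occur in 0.475% of all 32851 promoter windows of the table. Nr0b2 holds CACGTG, the E-box to which Bmal1 and Clock bind, from 195 bases before its start, and 7.15% of all windows hold it. Both strands were searched for these motifs and for TTATGTAA (the D-box of Dbp, in 0.938% of windows), AGGTCA (a nuclear receptor half-site), CAAGGTCA (the Nr5a2 type, which contains the half-site, in 1.56%) and an inverted pair of half-sites 1 base apart (in 0.00913%). Of the 10 genes, 6 had a window, and Slc10a1 had 2. The half-site, present in 16.3% of all windows, occurred 2 times in that of Akr1d1 and 1 time in 1 of those of Slc10a1, and the windows of Cyp27a1 and Hsd3b7 held none of these motifs. Cyp7a1, Cyp7b1, Slc27a5 and Baat are named only. A match describes the letters and says nothing about binding.

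Cyp7a1, the rate-limiting enzyme of the classic route, lies on chromosome 4 of GRCm38 from 6265612 to 6275633. It had 1382, 2012 and 2846 normalized counts in WT livers and 543, 648 and 569 in Vps15LKO livers. Values are in the order of replicates 1 to 3 throughout. The WT livers differed from one another by more than the Vps15LKO livers did, and the lowest WT liver was still above the highest Vps15LKO liver. The log2 fold change was −1.77 (standard error 0.23, limma adjusted p = 0.00017), and −2.03 to −1.51 with each liver left out in turn. Per length of exon, Cyp7a1 was the lowest of the 10 genes in WT liver, at 22.2 ± 8.69 RPKM (SD, n = 3), the reads scaled to the exonic length of the gene and to all reads on genes of the library, a range that overlapped with that of Nr0b2.

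Cyp8b1, the sterol 12-hydroxylase that sets the proportion of cholic acid, lies on chromosome 9 from 121914356 to 121916305 in 1 exon. Its normalized counts were 11971, 11578 and 8329 in WT livers and 469.6, 1658 and 290.0 in Vps15LKO livers. Vps15LKO replicate 2 stood apart from the other two but lay well below the lowest WT liver. The log2 fold change was −4.10 (standard error 0.54, limma adjusted p = 0.00019), and −4.83 without Vps15LKO replicate 2, which moves the fold by 1.65 times. Cyp8b1 had the largest spread of the 10 genes among Vps15LKO livers, with an SD of 1.30 on the log2 scale against a median of 0.142 over all genes tested.

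The genes of the alternative route, Cyp7b1 and Cyp27a1, fell under every scaling tried, and Cyp7b1 had the largest change of the 10. Cyp7b1, the oxysterol 7-hydroxylase, lies on chromosome 3 from 18071950 to 18243338, and had 1946.5, 2111 and 5508 normalized counts in WT livers. In Vps15LKO livers it had 93.2, 94.0 and 68.6. WT replicate 3 was far above the other two WT livers, and without it the log2 fold change of −5.05 (standard error 0.36, limma adjusted p = 7.8e-06) was −4.57. In RPKM, Cyp7b1 went from 66.0 ± 44.1 in WT to 2.86 ± 0.340 in Vps15LKO liver (SD, n = 3), where it was the lowest of the 10 genes, with no overlap with Cyp7a1, the next.

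Cyp27a1, the mitochondrial sterol 27-hydroxylase, lies on chromosome 1 from 74713574 to 74737892. It had 13754, 13034 and 10351 normalized counts in WT and 1742, 2681 and 1542 in Vps15LKO livers. Both groups were tight beside the gap between them. The difference between genotypes was −2.67 on the log2 scale (standard error 0.21, limma adjusted p = 1.2e-05).

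The enzymes that modify the sterol ring in both routes had the smallest changes on the deposited scaling, and relative to hepatocyte markers neither was lower. Hsd3b7, which lies on chromosome 7 from 127800604 to 127803802, had 10818, 8441 and 10048 normalized counts in WT and 2848, 3995 and 2376 in Vps15LKO livers. The log2 fold change of Hsd3b7 was −1.69 (standard error 0.19, limma adjusted p = 8.8e-05). In GENCODE M21, 62.0% of its exonic bases are shared with Gm49388 on the same strand and 62.4% with 9430064I24Rik on the other, and Gm49388 held 7049 to 8429 reads in WT libraries where Hsd3b7 held 6758 to 8159, so reads may not be assigned to Hsd3b7 alone. Akr1d1, the 5-beta-reductase, lies on chromosome 6 from 37530173 to 37568815 and had 3685, 4158 and 2665 normalized counts in WT and 1397, 1569.6 and 953 in Vps15LKO livers. The change of Akr1d1 was the smallest of the 10, with a log2 fold change of −1.43 (standard error 0.21, limma adjusted p = 0.00042), which turned to 0.44 relative to hepatocyte markers. Apart from Hsd3b7, none of the 10 genes shared exonic bases with another annotated gene.

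Both conjugation genes fell under every scaling tried. Slc27a5, the bile acid coenzyme A ligase, lies on chromosome 7 from 12988346 to 12998192, with 19412, 19332 and 14820.0 normalized counts in WT and 2336, 3879 and 1777 in Vps15LKO livers. Slc27a5 changed by −2.81 on the log2 scale (standard error 0.26, limma adjusted p = 3.1e-05). Baat, the amino acid N-acyltransferase, lies on chromosome 4 from 49489422 to 49506557, with 3996, 3616 and 3629 in WT and 779.7, 1144 and 513 in Vps15LKO livers. Baat had the smallest spread of the 10 among WT livers, with an SD of 0.08 on the log2 scale, and one of 0.58 among Vps15LKO livers. The log2 fold change was −2.28 (standard error 0.25, limma adjusted p = 6.6e-05).

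Slc10a1, the sodium-dependent uptake transporter, lies on chromosome 12 from 80953183 to 80968705. It had 24750.2, 22753.5 and 20492 normalized counts in WT and 2251, 3557 and 1695 in Vps15LKO livers. With 454 ± 24.5 RPKM in WT liver (SD, n = 3), it was the highest of the 10 genes per length, above Slc27a5 with no overlap. In Vps15LKO liver it had 81.8 ± 25.7 RPKM, and its range overlapped with those of Hsd3b7 and Slc27a5. The log2 fold change of the normalized counts was −3.24 (standard error 0.24, limma adjusted p = 1.0e-05).

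Nr0b2, the repressor of the pathway, was lower on the deposited scaling together with Cyp7a1 and Cyp8b1, which it represses. Relative to hepatocyte markers Nr0b2 and Cyp7a1 (0.10) were not called, and Cyp8b1 (−2.24) was called lower. Nr0b2 lies on chromosome 4 from 133553376 to 133556536 and had 1461, 718 and 783 normalized counts in WT and 175, 323 and 144 in Vps15LKO livers. WT replicate 1 stood above the other WT livers. Nr0b2 changed by −2.22 on the log2 scale (standard error 0.34, limma adjusted p = 0.00046), and −1.90 without WT replicate 1. Relative to hepatocyte markers its log2 difference was −0.35 (limma adjusted p = 0.12).

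The order of the 10 genes per length differed between the genotypes. In WT liver it was Slc10a1 (454 RPKM), Slc27a5 (322), Cyp27a1 (251), Cyp8b1 (239.7), Hsd3b7 (156), Baat (85.2), Cyp7b1 (66.0), Akr1d1 (53.3), Nr0b2 (38.2) and Cyp7a1 (22.2). From Baat down, each gene overlapped with the next, as did Cyp27a1 with Cyp8b1. In Vps15LKO liver it was Slc10a1 (81.8), Hsd3b7 (80.3), Slc27a5 (78.5), Cyp27a1 (66.1), Akr1d1 (32.7), Baat (30.1), Cyp8b1 (29.1), Nr0b2 (13.6), Cyp7a1 (10.3) and Cyp7b1 (2.86). There the first 4 overlapped in turn, and so did those from Akr1d1 to Cyp7a1, with a gap between Cyp27a1 and Akr1d1.

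Markers of the cells of the liver also differed between genotypes. Of 20 hepatocyte markers, 16 were called lower and 0 higher, with a median log2 fold change of −1.84, and their summed normalized counts were 4276000 to 4574000 in WT and 1356000 to 1973000 in Vps15LKO livers. For 19 markers every Vps15LKO value lay below every WT value and for 1 above, against 36.8% and 36.4% of all genes tested. They did not move as one, since Serpina3k was at −3.93 and Hpx at 0.48. Alb, at −1.48, was not called because its limma standard error was 1.38. Its normalized counts did not overlap, at 2030860 to 2350420 in WT and 620735 to 968935 in Vps15LKO livers, with log2 SDs of 0.106 and 0.321. Cholangiocyte markers had a median of 3.13, with 10 of the 11 tested called higher and 0 lower, and the summed normalized counts of all 13 were 4000 to 4133 in WT and 16340 to 29180 in Vps15LKO livers. Sctr, a marker too low to be tested, had 0 to 1 reads in the WT group and 24 to 62 in the Vps15LKO group. Of 10 macrophage markers 8 were called higher and 0 lower, with a median of 1.42 and sums of 6505 to 7473 in WT and 16050 to 21350 in Vps15LKO livers. All 10 stellate markers were called higher, with a median of 2.26 and sums of 7095 to 7597 and 30560 to 36140. Of 10 endothelial markers 4 were higher and 4 lower (median 0.16, sums of 10300 to 11240 and 9776 to 11370). The part of these cells in the values of the 10 genes was not tested.

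Relative to the hepatocyte markers, 6 of the 10 genes were called lower. With each library scaled to the mean log2 level of the 20 markers, the log2 fold changes were −3.19 for Cyp7b1, −2.24 for Cyp8b1, −1.38 for Slc10a1, −0.94 for Slc27a5, −0.80 for Cyp27a1 and −0.41 for Baat, all called lower and none overlapping between genotypes. Under this scaling 2.48% of all genes were called lower and 92.2% higher. Cyp7a1 (0.10), Hsd3b7 (0.17) and Nr0b2 (−0.35) were not called, and Akr1d1 was called higher (0.44, limma adjusted p = 0.021) although its values relative to the markers overlapped between genotypes. Those of Hsd3b7 did not overlap, but the nearest pair was at −3.19 in both genotypes (log2 of the gene over the marker mean). The calls and p-values of this scaling do not follow each gene's own spread between livers. Cyp8b1 had a standard error of 0.185 there, against 0.535 on the deposited scaling, although its Vps15LKO values relative to the markers ran from −6.19 to −4.29.

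**Figure D2:**
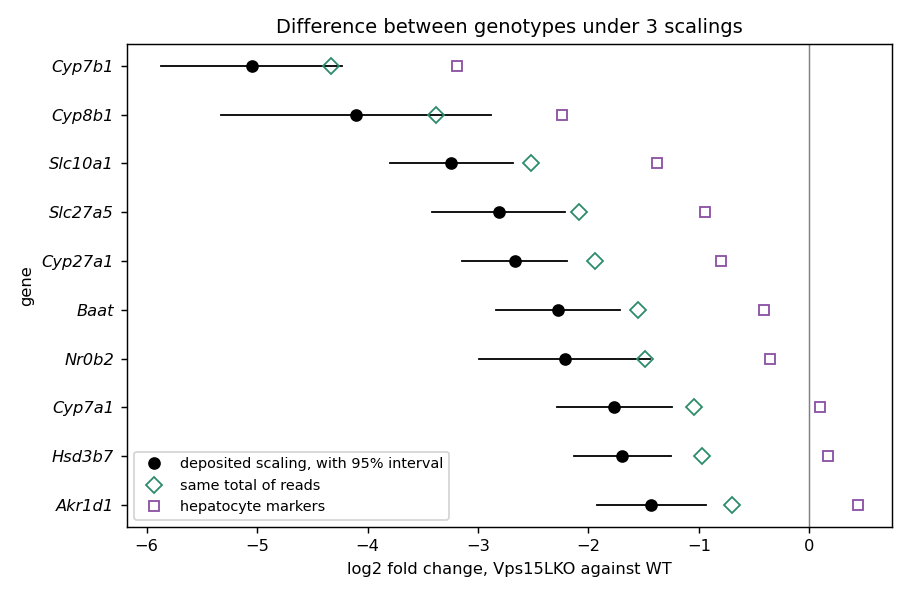
Log2 fold change of Vps15LKO against WT liver for the 10 genes, with the deposited scaling (black, 95% interval from limma), with libraries scaled to the same total of reads (diamonds) and with libraries scaled to 20 hepatocyte markers (squares). All 10 lie below 0 in the first and second, and Cyp7a1, Hsd3b7 and Akr1d1 lie above 0 in the third.

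Ratios between 2 genes of 1 library do not depend on its scaling, and 6 were compared by a two-sided exact permutation test, which with 3 livers against 3 cannot give a p under 0.1. The ratio of Cyp8b1 to Cyp7a1 counts was 8.66, 5.75 and 2.93 in WT and 0.865, 2.56 and 0.510 in Vps15LKO livers, with no overlap. Its log2 difference was −2.34 (exact p = 0.1, adjusted 0.15), and −2.985 without Vps15LKO replicate 2, a change in the fold of over 1.5 times. The ratio of Cyp7b1 to Cyp7a1, alternative against classic route, was 1.41, 1.05 and 1.94 in WT and 0.172, 0.145 and 0.121 in Vps15LKO livers, a log2 difference of −3.28 (exact p = 0.1, adjusted 0.15). That of Cyp27a1 to Cyp7a1 overlapped between the genotypes (log2 difference −0.90, exact p = 0.2, adjusted 0.24).

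Uptake was compared with export into bile by the ratio of Slc10a1 to Abcb11, the bile salt export pump. Slc10a1 had 1.93, 1.54 and 1.52 times the counts of Abcb11 in WT livers and 0.923, 0.898 and 0.942 times in Vps15LKO livers, with no overlap and a log2 difference of −0.84 (exact permutation p = 0.1, adjusted 0.15). Within conjugation, the ratio of Baat to Slc27a5 was 0.206, 0.187 and 0.245 in WT and 0.334, 0.295 and 0.289 in Vps15LKO livers, higher in every Vps15LKO liver (log2 difference 0.53, exact permutation p = 0.1, adjusted 0.15). Nr0b2 to Nr1h4, the receptor that induces it, overlapped between genotypes (log2 difference −0.64, exact permutation p = 0.3). The exact permutation test could not pass 0.05 for any of the 6 ratios with 3 livers against 3, and in 4 of them the genotypes did not overlap.

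**Figure D3:**
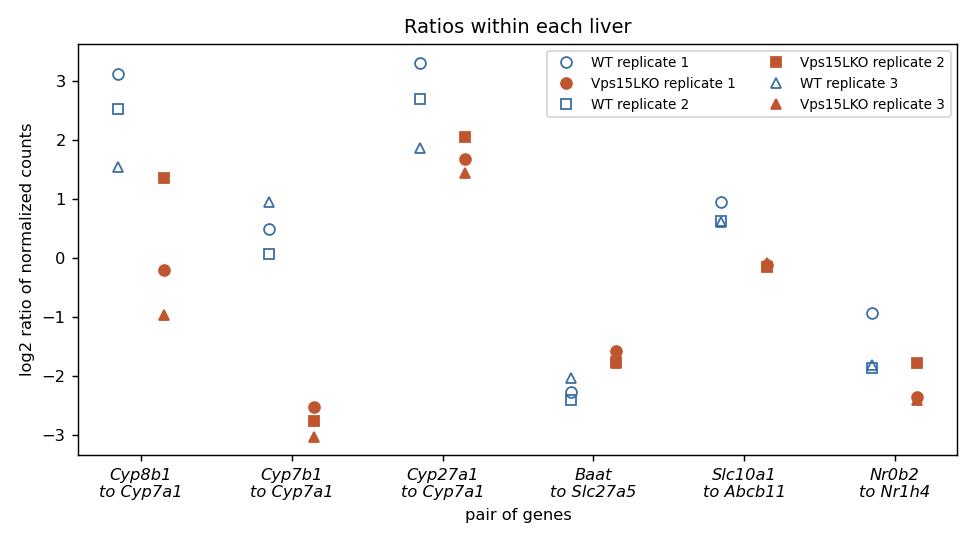
Log2 ratio of normalized counts of 6 pairs of genes within each WT (open) and Vps15LKO (filled) liver. The genotypes do not overlap for Cyp8b1 to Cyp7a1, Cyp7b1 to Cyp7a1, Baat to Slc27a5 and Slc10a1 to Abcb11.

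The 3 Vps15LKO livers differed in how low the genes were. Vps15LKO replicate 2 had the highest value of all 10 genes and replicate 3 the lowest of 9, while of all genes tested 41.4% were highest in replicate 2 and 41.2% lowest in replicate 3. All 20 hepatocyte markers were likewise highest in replicate 2 and lowest in replicate 3, while the 11 tested cholangiocyte markers were all highest in replicate 3 and 9 of them lowest in replicate 2. With the same total of reads in each library, replicate 2 was highest for 8 of the 10 genes, against 20.4% of all genes tested. The median SD on the log2 scale among Vps15LKO livers was 0.479 for the 10 genes and 0.142 over all genes tested, and among WT livers 0.256 and 0.175. Of the WT livers, replicate 1 was highest for 7 of the 10 genes on the deposited scaling, against 36.4% of all genes tested, and for 4 with the same total of reads, against 24.6%. Without Vps15LKO replicate 2, all 10 genes were still called lower.

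**Figure D4:**
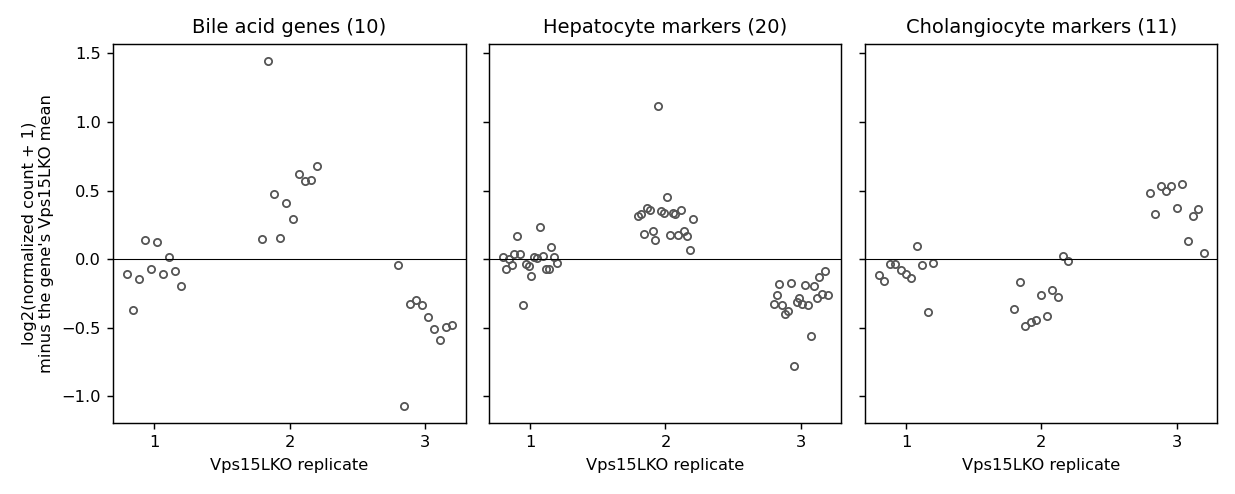
Each point is 1 gene in 1 Vps15LKO liver, as log2(normalized count + 1) minus the mean of that gene over the 3 Vps15LKO livers, for the 10 bile acid genes, 20 hepatocyte markers and 11 cholangiocyte markers. The first and second sets are highest in replicate 2, and the cholangiocyte markers are highest in replicate 3, on the deposited scaling.

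Of the other genes of the pathway, 48 of 52 listed were tested, and 40 were called lower and 4 higher on the deposited scaling. Of these 48, Cyp46a1 and Slco1a1 passed the filter only through WT livers and Slc51b and Sult2a1 only through Vps15LKO livers, where they are high, so their calls carry no weight. The other 44 had at least 20 normalized counts in every liver, and 38 of them were called lower and 2 higher. Of all genes tested, 33.0% were called lower and 33.5% higher on this scaling. With the same total of reads these shares were 11.1% and 66.8%, and relative to hepatocyte markers 2.48% and 92.2%. Counts of the 44 under these 2 scalings are given by list. Of the 12 other enzymes of synthesis with at least 20 counts in every liver, 11 were called lower on the deposited scaling. Acnat2 was not called (−0.40). With the same total of reads 8 were lower and 1 higher, and relative to hepatocyte markers 2 were lower and 6 higher. On the deposited scaling, Slc27a2, a coenzyme A ligase, was at −2.62 and Scp2, the thiolase of side-chain shortening, at −2.52, and with quantile normalization they were at −1.66 and −1.28. Cyp46a1, a cholesterol 24-hydroxylase, had 17 to 52 reads in the WT group and 8 to 12 in the Vps15LKO group. Cyp2c70, which makes the muricholic acids of the mouse, had 8470, 8483 and 17179 normalized counts in WT and 2961, 3644 and 2422 in Vps15LKO livers (log2 fold change −1.85, limma adjusted p = 0.00042), with WT replicate 3 highest as for Cyp7a1 and Cyp7b1, and relative to hepatocyte markers it was at 0.01 and not called.

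Of the 13 transporters with at least 20 counts in every liver, 10 were called lower on the deposited scaling and 1 higher. The shares of all genes tested were 33.0% and 33.5%. With the same total of reads 5 were lower and 4 higher, against 11.1% and 66.8% of all genes tested. Relative to hepatocyte markers 3 were lower and 8 higher, against 2.48% and 92.2%. The 1 higher on the deposited scaling was Abcc4, which moves bile acids out of the hepatocyte to the blood. Abcc4 had 98.1, 122 and 68.7 normalized counts in WT and 2813, 2414 and 2417 in Vps15LKO livers, with a log2 fold change of 4.74 (limma adjusted p = 5.8e-07). Slc51b, a subunit of another such exporter, had 18.6, 7.49 and 29.7 normalized counts in WT and 60.3, 51.1 and 77.8 in Vps15LKO livers, from 6 to 110 reads. Slc51a, the other subunit of the transporter of Slc51b, had 126, 121 and 148 normalized counts in WT and 101, 92.4 and 88.4 in Vps15LKO livers (−0.48, limma adjusted p = 0.015), was not called with the same total of reads (0.24) and was called higher relative to hepatocyte markers (1.37). Abcc2 (−0.00, 95% interval −0.35 to 0.35) and Abcc3 (−0.28, −0.74 to 0.18) were not called, and both were called higher with the same total of reads. The organic anion transporter Slco1a1 had 9899.55, 10711 and 10759.8 normalized counts in WT and 9.16, 62.4 and 10.6 in Vps15LKO livers, a log2 fold change of −9.06 that rests on 12 to 77 reads in Vps15LKO libraries. Slco1b2 fell by 3.02 on the log2 scale. Abcb11 had 12811, 14816 and 13461 in WT and 2439, 3963 and 1799 in Vps15LKO livers (−2.40, limma adjusted p = 5.7e-05).

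On the deposited scaling, 14 of 15 regulators tested were lower and S1pr2, a receptor of conjugated bile acids, was higher (2.11), where 33.0% and 33.5% of all genes tested were called lower and higher. With the same total of reads 6 regulators were lower and 2 higher, against 11.1% and 66.8% of all genes tested. Relative to hepatocyte markers 0 were lower and 12 higher, against 2.48% and 92.2%. Nr1h4, the bile acid receptor, had 2798, 2622 and 2778 normalized counts in WT and 900.3, 1109 and 766 in Vps15LKO livers (−1.58, limma adjusted p = 1.8e-05). Hnf4a, whose motif the Cyp8b1 window holds, had a log2 fold change of −1.38, and Klb (−1.73) and Fgfr4 (−0.81), the receptor pair of the ileal hormone Fgf15, and Nr5a2 (−0.84) were also lower. With the same total of reads, Fgfr4 (−0.08) and Nr5a2 (−0.11) were not called, and relative to hepatocyte markers, where the median of all genes was 1.84, Hnf4a (0.49), Fgfr4 (1.06) and Nr5a2 (1.03) were called higher while Nr1h4 (0.29) and Klb (0.14) were not called. The clock factors Nr1d1 and Dbp had log2 fold changes of −1.35 and −1.29 on the deposited scaling and were called higher relative to hepatocyte markers, at 0.51 and 0.57, below the same median of 1.84. The xenobiotic receptor Nr1i3 was at −2.13 on the deposited scaling and at −0.26, not called, relative to hepatocyte markers. On the opposite strand, Nr1i3 shares 74.9% of its exonic bases with Tomm40l, Nr1d1 shares 263 bases with Thra and Dbp 539 bases with Sphk2.

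**Figure D5:**
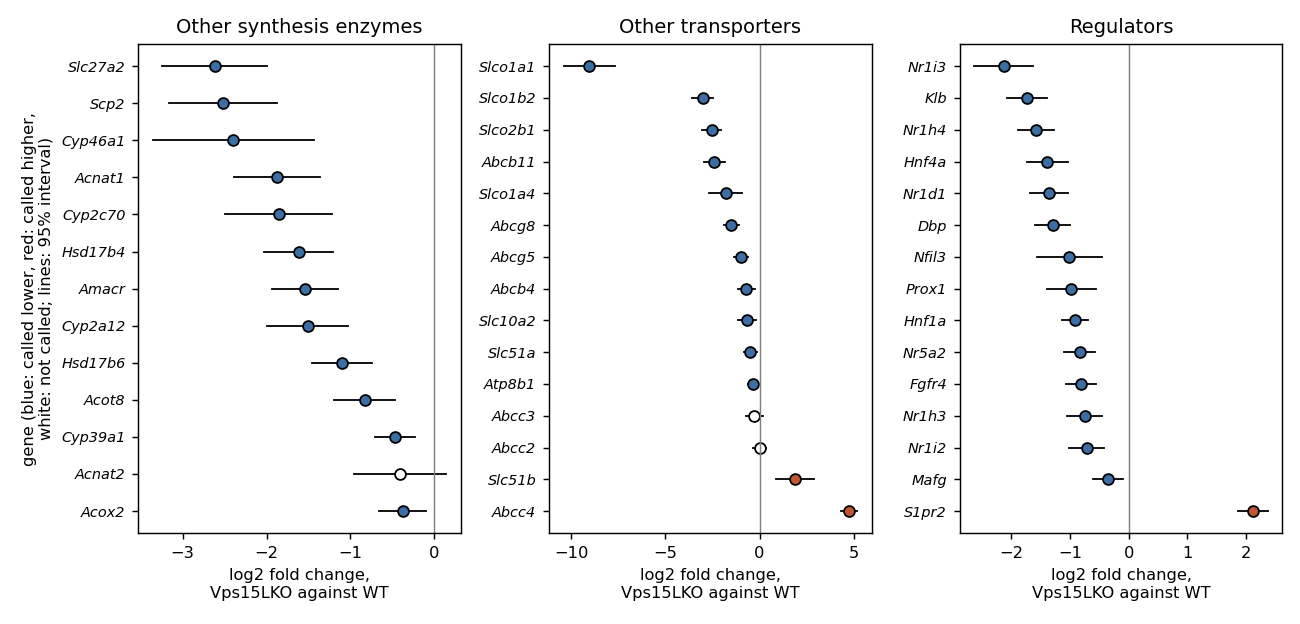
Log2 fold change of Vps15LKO against WT liver, with 95% intervals from limma, for the other synthesis enzymes (13), transporters (15) and regulators (15) tested, on the deposited scaling. Blue is called lower, red called higher and white not called, and Abcc4 and S1pr2 are called higher. Cyp46a1, Slco1a1 and Slc51b are drawn with their calls, although they passed the filter only through the group where they are high. Relative to hepatocyte markers, 92.2% of all genes tested are called higher. So are 6 of 12 enzymes, 8 of 13 transporters and 12 of 15 regulators with at least 20 counts in every liver.

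Of the 4 genes of bile acid detoxification with at least 20 counts in every liver, 3 were called lower and 0 higher on the deposited scaling. Of all genes tested, 33.0% and 33.5% were. With the same total of reads 3 were lower and 0 higher, against 11.1% and 66.8% of all genes tested. Relative to hepatocyte markers 1 was lower and 1 higher, against 2.48% and 92.2%. Sult2a8, a bile acid sulfotransferase, had 18388, 18173 and 17490.4 normalized counts in WT and 149, 531 and 76.4 in Vps15LKO livers (−6.62), and Cyp3a11, a hydroxylase whose gene has near-identical copies that could take some of its reads, was at −1.98. Cyp3a11 was not called with quantile normalization (−0.54) or relative to hepatocyte markers (−0.12). Sult2a1 had at most 2 reads in WT libraries and 63 to 70 in Vps15LKO libraries, at least 13.1-fold higher against a floor of 3 reads per library, and it too has near-identical copies. Ephx1 was not called on the deposited scaling (−0.39) or with the same total of reads (0.34). It was called higher with quantile normalization (0.71) and relative to hepatocyte markers (1.48).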

How the data were processed

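RNA of the 3 WT and 3 Vps15LKO livers was compared. The authors cleaned the reads (SOAPnuke), aligned them by HISAT2 to the Ensembl genome GRCm38, assigned them to genes by featureCounts and divided the counts by DESeq2 size factors. The strand and multi-mapping settings and tool versions are not given in the sources used here. The deposited values are thus a signal, a scaled read count per gene. All values above 0 (100%) were whole multiples of 1 read within 0.01 reads, so reads were recovered. Symbols and lengths are from GENCODE M21 (same build), which names 55141 genes.

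log2(value + 1) was compared with limma 3.58.1 (eBayes with trend, R 4.3.3), Benjamini-Hochberg over 15430 genes. The test was first run on simulated data, where 96.0% of 198 changed genes (folds of 2 and 3) among 15227 genes were recovered, with 9 false calls. The simulation gave all genes the same dispersion and changed few genes, unlike these data, so its figures do not carry over to them. Alternatives were pseudocounts, filters, scalings, limma without trend, limma voom, DESeq2 1.42.0 and edgeR 4.0.16 on the recovered reads, thresholds, each liver left out, and the replicate number as a block.

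The genes, lists and motifs were chosen with earlier results of these data known. Named are the 10 genes, Pik3r4, of each of the 4 other pathway lists the 3 called genes of largest change, and Abcb11, Nr1h4, Nr5a2, Hnf4a, Fgfr4, Klb, Cyp2c70, Nr1d1 and Dbp. Acnat2, Slc51a, Slc51b, Abcc2, Abcc3, Ephx1, Alb, Serpina3k, Hpx, Gm49388, 9430064I24Rik, Ch25h, Gpbar1 and Cyp2b10 were named after their values were seen. No library was a copy of another (chi-square per gene 14.0 to 36.4 between replicates). Labels do not tie livers to litters. The p-values of limma share the spread between livers over genes of like level. With the hepatocyte scaling they do not follow each gene's own spread between livers, nor does that of Alb on the deposited scaling.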

Additional observations from a re-analysis of the deposited data

How the results depend on the processing

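All 10 bile acid genes were called lower, and 0 higher, in 22 of the 23 alternatives, among them edgeR, DESeq2 and limma voom on the recovered reads, every liver left out in turn and the replicate block. Scaling to hepatocyte markers left 6 lower and 1 higher and turned Cyp7a1 (0.10), Hsd3b7 (0.17) and Akr1d1 (0.44). Over all genes, this scaling gave 383 lower and 14228 higher, total-read scaling 1712 and 10300, and a fold of at least 2 gave 1957 and 3228, in place of 5099 and 5163. Of all 48 other bile acid genes tested, 7 were lower and 29 higher by hepatocyte scaling, and 24 and 9 by total reads. At a fold of 2, 25 were lower, and with quantile normalization 7 were higher. These counts include Cyp46a1, Slco1a1, Slc51b and Sult2a1, whose calls carry no weight. With at least 20 counts in all livers, where fewer genes are tested, 2 were higher. The hepatocyte and total-read scalings raise all log2 fold changes by construction. The cause of the quantile change was not tested. Quantile normalization moved Slc27a5 to −1.99, Slc10a1 to −2.43, Cyp27a1 to −1.96 and Hsd3b7 to −0.95. The replicate numbers did not pair the livers (correlations of deviations −0.00992, −0.0114 and 0.0485 for pairs 1 to 3), and with the replicate block 10 genes were lower. No ratio changed sign, and that of Cyp8b1 to Cyp7a1 was −2.985 to −1.82 with each liver left out. With 3 livers per group, no liver was tested for standing apart.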

Other observations

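Genes of the pathway too low to be tested gave these values. Ch25h, cholesterol 25-hydroxylase, had 1 to 2 reads in WT libraries and 25 to 30 in Vps15LKO libraries, at least 5.29-fold higher against a floor of 3 reads per library. Gpbar1, a bile acid receptor at the cell surface, had 1 read in each WT library and 4 to 20 in Vps15LKO libraries. Cyp2b10 had 6 to 13 reads in the WT group and 1 to 4 in the Vps15LKO group. Fgf15 had 0 reads in all 6 libraries, which allows up to 3 reads in each.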
